A study of Mus musculus with 12 samples.

Results

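The 9 lung transcription factors described here were taken by name from a table of 55679 genes: Nkx2-1, Foxa1, Foxa2, Foxf1, Foxj1, Sox2, Sox17, Tbx2 and Tbx4. Each name had 1 row, so 9 of 9 were found, and the table marked all 9 as detected. The table came from male adult mice of the 129S6/SvEvTac background, 3 wild type (WT) and 3 knockout (KO) for Adam19, a metalloprotease of the cell surface. Whole lung and whole heart were taken from each of the 6 mice, which gave 12 strand-specific total RNA libraries in 4 groups of 3. A replicate number names 1 mouse of its genotype, the same one for both organs. KO mice were homozygous for an allele in which a pair of Adam19 coding exons is replaced by a tdTomato reading frame and an antisense hygromycin resistance cassette. The allele is present in every cell of these mice, and WT mice have neither the replacement nor the reporter. The mouse identifiers carry prefixes that WT and KO mice do not share, so genotype and whatever the prefix marks cannot be told apart.

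The 9 proteins fall into several families named for their DNA-binding domains, and each is known for a different compartment of the lung. Nkx2-1 (a homeodomain protein), Foxa1 and Foxa2 (forkhead proteins) act in lung epithelium from the first lung bud and keep surfactant and secretory genes active in the adult. Sox2 is known for the conducting airway epithelium, and Foxj1 is the forkhead factor of cells with motile cilia. Foxf1, Tbx2 and Tbx4 belong to lung mesenchyme, Foxf1 also to pulmonary capillaries, and Sox17 is known for endothelium, that of arteries above all. None of these roles was measured here.

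The values are log2 values as deposited, in which an estimated read count plus 1 is placed on the log2 scale and shifted by a constant for each library, and a gene with no reads stays at 0. A difference of 1 in these units is a doubling, except near 0, where the added count of 1 makes differences smaller than the true change. The libraries held between 17674788 and 35862932 estimated counts. The labels held up against marker genes: 9 of 9 alveolar type 2 genes were called higher in WT lung than in WT heart, and 10 of 10 heart muscle genes were called lower. Adam19 itself lay between 9.12 and 9.41 in WT lungs and between 3.21 and 4.44 in KO lungs, and between 9.17 and 10.27 in WT hearts and 6.01 and 6.67 in KO hearts. Rn7s1, an abundant small RNA gene, took from 2.1% to 34.0% of the counts in lungs and from 2.7% to 11.8% in hearts. In bulk tissue, fewer cells of a type and less RNA per cell cannot be told apart.

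In GRCm39, the assembly of the gene models used for these files, the genes of Nkx2-1 and Foxa1 both lie on the minus strand of chromosome 12, at chr12:56578742-56583722 and chr12:57587414-57593702. Foxa2 lies at chr2:147884797-147889005 (minus strand), Foxf1 at chr8:121811074-121814883 (plus strand), Foxj1 at chr11:116221530-116226225 (minus strand), Sox2 at chr3:34704554-34706610 (plus strand) and Sox17 at chr1:4561151-4567784 (minus strand). Tbx2 (chr11:85723377-85734115) and Tbx4 (chr11:85776887-85806923) are neighbours on the plus strand of chromosome 11, with starts 53.5 kb apart.

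Upstream sequence from RefSeq was at hand for 5 of the 9 genes, Nkx2-1, Foxa1, Foxa2, Sox2 and Tbx4. Foxf1, Foxj1, Sox17 and Tbx2 were not matched. The RefSeq table is on GRCm38.p6, and each sequence had 1 exact match in GRCm39, whose coordinates are given. Each run below reads 5′ to 3′ on the gene's own strand, starts 250 bases before the RefSeq start and stops at that start, or before it where an annotated exon begins earlier. Nkx2-1, Foxa1, Foxa2 and Sox2 are shown as the epithelial factors whose lung and heart levels lay far apart, and Tbx4 because a transcript whose share ranged from 0% to 36.8% between lungs starts right after this run. Foxa2 has 3 RefSeq starts, of which the outer and the inner one are shown, since the 250 bases before the other lie within an exon. The outer Foxa2 run ends next to the start of the main Foxa2 transcripts, and the inner one next to that of ENSMUST00000146242, which held at most 1.88% of the Foxa2 counts in a lung. Capitals mark letters that match any of 7 motifs, searched on both strands. The forkhead motif was searched for as TGTTTAC, and the motif of Nkx2-1 itself was searched for as CTCAAG. For the T-box proteins the letters were AGGTGT, and for the Sox proteins they were AACAAT. The promoter elements searched for were the CCAAT box, by those letters, the GC box in the form GGGCGG, and the element known as the TATA box in the form TATAAA. In the 6 runs shown no match overlapped another.
Nkx2-1, chr12:56583723-56583943, minus strand: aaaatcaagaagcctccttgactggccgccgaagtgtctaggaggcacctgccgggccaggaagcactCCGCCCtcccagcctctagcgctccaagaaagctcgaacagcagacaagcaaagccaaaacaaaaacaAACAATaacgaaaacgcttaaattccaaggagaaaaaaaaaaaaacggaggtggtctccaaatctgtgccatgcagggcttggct
Foxa1, chr12:57592945-57593147, minus strand: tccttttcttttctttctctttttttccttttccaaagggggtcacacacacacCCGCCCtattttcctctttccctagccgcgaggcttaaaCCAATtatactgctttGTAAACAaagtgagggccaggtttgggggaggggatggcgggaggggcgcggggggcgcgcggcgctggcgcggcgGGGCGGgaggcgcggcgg
Foxa2 outer start, chr2:147889006-147889139, minus strand: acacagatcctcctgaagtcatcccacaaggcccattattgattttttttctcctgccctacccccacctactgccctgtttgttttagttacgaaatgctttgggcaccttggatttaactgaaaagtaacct
Foxa2 inner start, chr2:147887385-147887634, minus strand: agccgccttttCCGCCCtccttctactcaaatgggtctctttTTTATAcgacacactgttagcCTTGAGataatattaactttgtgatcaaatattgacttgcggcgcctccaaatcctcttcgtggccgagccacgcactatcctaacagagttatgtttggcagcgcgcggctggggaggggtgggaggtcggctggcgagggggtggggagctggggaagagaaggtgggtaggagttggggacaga
Sox2, chr3:34703894-34704143, plus strand: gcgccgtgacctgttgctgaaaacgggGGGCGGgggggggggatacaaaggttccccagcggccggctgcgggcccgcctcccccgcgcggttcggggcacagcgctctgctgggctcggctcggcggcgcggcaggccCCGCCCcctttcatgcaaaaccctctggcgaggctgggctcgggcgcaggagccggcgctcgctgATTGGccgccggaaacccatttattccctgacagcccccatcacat
Tbx4, chr11:85787341-85787590, plus strand: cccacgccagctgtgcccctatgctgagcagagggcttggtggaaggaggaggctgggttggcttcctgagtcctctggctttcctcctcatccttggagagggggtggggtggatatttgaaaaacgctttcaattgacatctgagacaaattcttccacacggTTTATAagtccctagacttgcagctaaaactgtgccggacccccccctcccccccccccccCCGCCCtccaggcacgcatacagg

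The Foxa1 run held the forkhead letters, in reverse at position -141 from the RefSeq start, a motif that 3.17% of 32851 promoter windows held. These windows are the full 250 bases before a start, longer than the printed runs of Nkx2-1, Foxa1 and the outer Foxa2 start. Its CCAAT letters stood at position -157, where 33.9% of windows held that motif somewhere. The Nkx2-1 run held the Sox letters at -114, found in 9.42% of windows. The Tbx4 run held the TATA letters in reverse at -85, found in 12.4% of windows. The inner Foxa2 run held the Nkx2-1 letters in reverse at -187, found in 13.3% of windows, and the TATA letters in reverse at -208. The printed part of the outer Foxa2 run held no match. The other 5 runs held GC box letters, as did 32.7% of windows. The Sox2 window was 72% G and C, against 62.0% for Foxa1, 58.4% for Tbx4, 50.8% for Nkx2-1, 50.8% and 54.4% for the outer and inner Foxa2 windows and a median of 52.4% over all windows. These matches describe letters and say nothing of whether a factor binds there.

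Lung and heart were compared first, within each genotype, to show how far the 9 genes mark the lung in these libraries. In WT mice 9 of 9 genes were called higher in lung, where 29.3% of all 17666 genes tested were called higher. In KO mice 9 of 9 were called higher as well, against 28.7% of all genes. A call needed an adjusted p under 0.05 in limma (Benjamini-Hochberg over all genes tested), a change of 1.5-fold or more and a higher group mean of 6 or more. For each of the 9 genes, the lowest lung lay above the highest heart in both genotypes, as it did for 41.4% of all genes tested in WT and 45.4% in KO. The genes had to reach a value of 3.46 in 3 of the 12 libraries to be tested, and Nkx2-1, Foxa1, Foxa2, Foxj1, Sox2 and Tbx4 did so through the lungs. The median difference over the 9 genes was 8.05 in WT and 7.19 in KO, beside medians of 0.32 and 0.28 over all genes tested. Scaling to CPM, counts as a share of the library total, moved those medians of all genes to 0.74 and 0.96 and the split of calls from 5179 higher and 3547 lower to 6922 higher and 2562 lower in WT, and from 5076 and 3685 to 7936 and 2225 in KO. The 9 genes stayed called higher under that scaling.

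**Figure D1:**
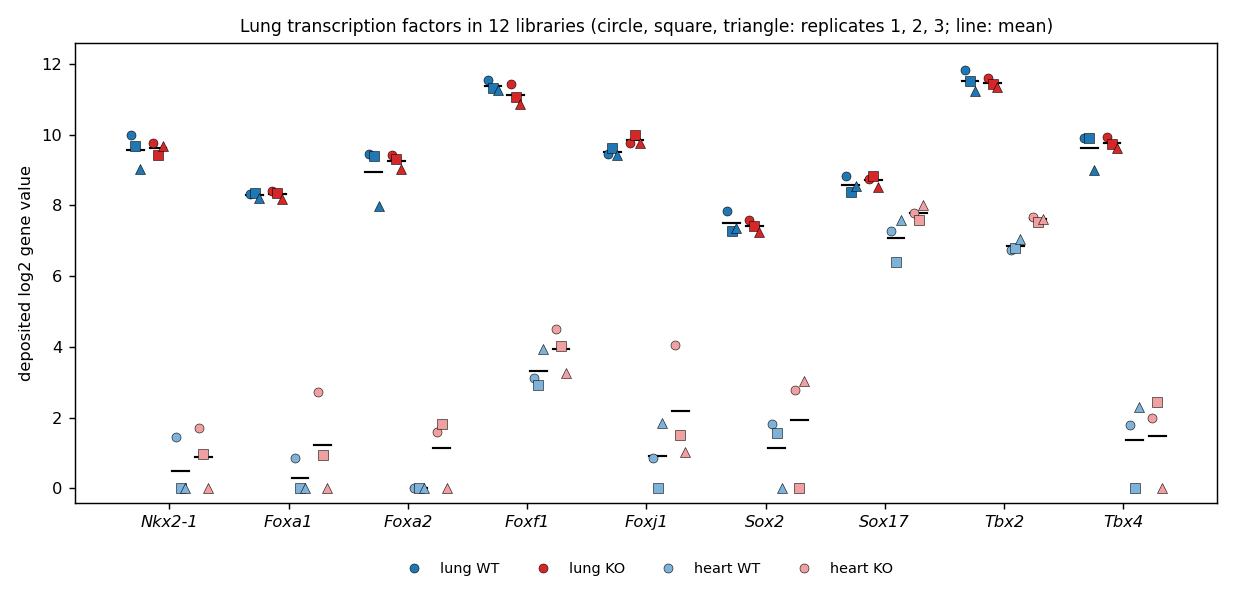
Deposited log2 values (vertical axis) of the 9 genes (horizontal axis) in 12 libraries, with colours for the 4 groups, symbols for replicates and a line at each group mean. In 8 genes a gap of more than 3 units parts the lungs from the hearts, whereas Sox17 reached 8.0005 in a heart and was never above 8.84 in a lung.

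Nkx2-1 measured 9.99, 9.69 and 9.04 in WT lungs and 9.76, 9.43 and 9.68 in KO lungs. In hearts it measured 1.45, 0 and 0 in WT and 1.71, 0.96 and 0 in KO, values that stand for a few counts or none. The lung minus heart difference was 9.09 (standard error 0.49, limma adjusted p = 5.83e-09) in WT, rank 35 of the 17666 genes tested, and 8.73 (0.49, limma adjusted p = 9.09e-09) in KO. The ratio of counts on a common scale was 869 in WT, with an exact 95% interval from 231 to 6916 that covers counting error only.

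Foxa1 measured 8.32, 8.35 and 8.21 in WT lungs and 8.40, 8.35 and 8.18 in KO lungs, the narrowest spread of the 9 genes. Its pooled standard deviation within genotypes was 0.10 in lungs, at percentile 3.86 of all genes tested, where the median gene had 0.29. In hearts it was listed at 0 in 2 WT libraries and 1 KO library, and the highest heart value was 2.74, in KO replicate 1.

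Foxa2, the partner of Foxa1 in the same subfamily, measured 9.44, 9.40 and 7.997 in WT lungs and 9.44, 9.32 and 9.03 in KO lungs. Its spread was the widest of the 9, with a pooled standard deviation of 0.60 at percentile 89.7, and WT replicate 3 stood 0.95 under the mean of its group. It was listed at 0 in 3 of 3 WT hearts, so the fold has a lower bound alone: Foxa2 was at least 374-fold higher in WT lung, against a floor of 3 counts over the group. In KO hearts it measured 1.60, 1.82 and 0.

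Foxj1 measured 9.45, 9.62 and 9.44 in WT lungs and 9.77, 9.98 and 9.77 in KO lungs. WT hearts gave 0.85, 0 and 1.86, and KO hearts gave 4.05, 1.501 and 1.04. The value of 4.05, in heart KO replicate 1, stood apart from the other 5 hearts. That library also had more airway RNA by its 7 club and goblet cell genes. They summed to 1.15% of the mean WT lung level, with none at 0, against 0.0157% to 0.166% in the other hearts. Its 18 ciliated cell genes summed to 10.5% against 4.29% to 8.70%, and most of that sum in each heart was Tppp3. Tppp3 measured 8.68 to 9.85 in the other hearts and 9.90 in this library. Of the 18 genes, 3 to 6 were at 0 in each of the other hearts and none in this library. Scgb1a1, the main club cell secretory protein, was 10.23 there and 4.54 to 8.32 in the other hearts, while alveolar type 2 genes summed to 0.581% of the lung level against 0.385% to 0.577%. The part of this RNA in the heart values was not tested. Leaving that library out, the KO lung minus heart difference of Foxj1 was still called and became the highest of its leave-one-out values, 8.57, against 7.64 with it.

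Sox2 was the lowest of the epithelial factors, at 7.85, 7.28 and 7.37 in WT lungs and 7.60, 7.42 and 7.24 in KO lungs. In hearts it measured 1.84, 1.58 and 0 in WT and 2.78, 0 and 3.02 in KO. Its difference was 6.36 (standard error 0.70, limma adjusted p = 4.34e-06) in WT, the largest standard error of the 9, and its 3 WT hearts held 0 to 2.82 estimated counts.

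Foxf1 measured 11.55, 11.32 and 11.26 in WT lungs and 11.44, 11.08 and 10.86 in KO lungs. Hearts gave 3.11, 2.94 and 3.94 in WT and 4.50, 4.04 and 3.26 in KO, so Foxf1 was counted in each of the 6 hearts. The ratio of lung to heart counts was 301 in WT (exact 95% counting interval 189.9 to 481) and 150.0 in KO (113 to 202).

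Tbx2, a T-box repressor, measured 11.84, 11.52 and 11.24 in WT lungs and 11.60, 11.44 and 11.35 in KO lungs. It was well above the floor in hearts too, at 6.73, 6.79 and 7.04 in WT and 7.69, 7.54 and 7.61 in KO. Its ratios, as those of Foxf1, carry counting intervals, which leave out the spread between mice and do not test the genotypes against each other. The lung level of Tbx2 was 25.9 times the heart level in WT (counting interval 22.9 to 29.5) and 14.6 times in KO (13.4 to 15.8). Tbx4, its neighbour on the chromosome, measured 9.91, 9.91 and 9.01 in WT lungs and 9.92, 9.74 and 9.61 in KO lungs, and 1.79, 0 and 2.31 in WT hearts and 1.99, 2.44 and 0 in KO hearts. The pair thus differed in the heart, where Tbx4 was near or at 0 and Tbx2 was not.

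Sox17 was the gene least tied to the lung. It measured 8.82, 8.37 and 8.54 in WT lungs and 8.76, 8.84 and 8.52 in KO lungs, and 7.28, 6.39 and 7.58 in WT hearts and 7.79, 7.58 and 8.0005 in KO hearts. Its lung minus heart difference was 1.49 (standard error 0.27, limma adjusted p = 0.000285) in WT and 0.91 (0.27, limma adjusted p = 0.00868) in KO, at ranks 4344 and 5979 of 17666. The other 8 genes ranked from 35 to 762 in WT and from 37 to 1205 in KO.

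Levels of different genes were compared per length, as scaled estimated counts per kb of transcript. In WT lungs Foxf1 was the highest at 1081 ± 117 (SD, n = 3), followed by Tbx2 at 828 ± 174, and the ranges of both overlapped. A gap followed in which no ranges overlapped, then Nkx2-1 at 309 ± 96.0, Foxj1 at 269.9 ± 19.1, Tbx4 at 239 ± 76.4, Sox17 at 187 ± 35.4 and Foxa2 at 178 ± 81.8, each overlapping the next. Foxa1 at 94.1 ± 4.67 and Sox2 at 86.3 ± 19.4 were the lowest and overlapped each other, and the Foxa2 range reached down to that of Foxa1. In KO lungs the order was the same apart from Foxj1, which stood above Nkx2-1 with overlapping ranges. In WT hearts the order was led by Sox17 at 77.4 ± 33.2, Tbx2 at 31.7 ± 3.62 and Foxf1 at 3.68 ± 1.63, without overlap between them, and the other 6 genes had means of at most 0.613 per kb.

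The 9 genes were then set against their relatives by name, the Fox, Sox, Tbx and Nkx genes. Of 91 such genes in the table, 52 passed the filter of the lung and heart fit. Among the 43 tested relatives outside the 9, 10 were called higher and 13 lower in WT lung, with a median difference of -0.43, where 29.3% of all genes tested were called higher and 20.1% lower. Ordered by the WT difference, the 9 genes held 8 of the first 9 places. The exception in those places was Foxf2, a relative of Foxf1 in lung mesenchyme, at the fifth place with 8.10 (standard error 0.37). Sox17 came at place 20. Lowest among the called genes stood Nkx2-5 at -6.96 (0.37) and Tbx20 at -5.61 (0.20), both factors of the heart muscle lineage, and Tbx18 at -3.14 (0.35), known in the epicardium. Foxd3, a neural crest factor, was as low at -3.17 (0.62) but its heart mean of 3.99 was under the level needed for a call.

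**Figure D2:**
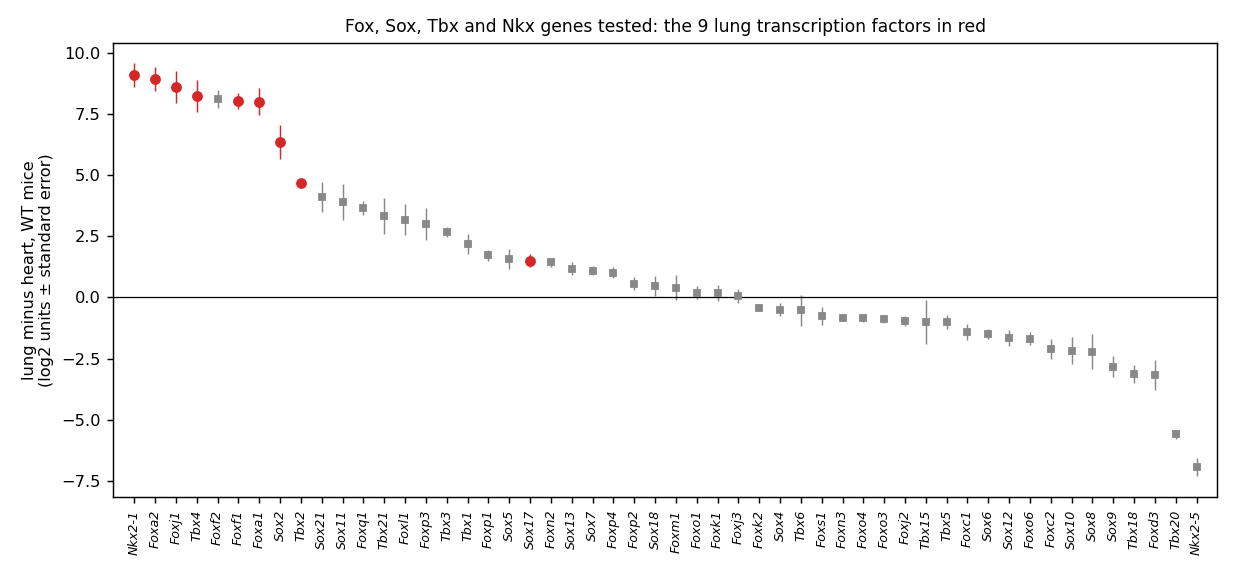
Lung minus heart difference in WT mice (vertical axis, log2 units, bars of 1 standard error, 3 mice) for the 52 Fox, Sox, Tbx and Nkx genes tested, in order. The 9 lung transcription factors (red circles) fill 8 of the first 9 places and Sox17 lies at place 20, among grey squares for the other 43 genes.

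Other transcription factors of the same compartments were described by fixed lists. Of 34 other epithelial factors 30 were tested, and 20 were called higher and 3 lower in WT lung, with a median difference of 2.67 beside 0.32 for all genes. Over all genes tested 29.3% were called higher and 20.1% lower, which holds for the next lists as well. Among those with the highest lung levels was Etv5, a mediator of FGF signalling in distal epithelium. In WT mice Etv5 rose from 8.58 ± 0.13 in heart to 11.87 ± 0.19 in lung (SD, n = 3), and Hopx rose from 12.65 to 13.53. In KO mice Hopx measured 13.08, 12.61 and 13.01 in lungs and 12.95, 12.61 and 12.92 in hearts. Those Hopx values overlapped, whereas the KO lungs and hearts did not overlap in Etv5. Nfib, also among the 3 highest, measured 12.49, 12.94 and 12.96 in WT lungs and 13.01, 13.50 and 13.15 in WT hearts and was not called. Of 14 other mesenchymal factors, 7 were called higher and 1 lower with a median of 1.03, and Tbx3, the closest relative of Tbx2, rose by 2.68 (standard error 0.20). Of 16 other endothelial factors, 10 were called higher and 2 lower with a median of 1.11. Mecom rose by 2.03 (0.18) and Hey1, a Notch target of arteries, by 2.79 (0.23), whereas Prox1, which is expressed in heart muscle as well as in lymphatic endothelium, was lower in lung by 5.40 on the log2 scale. Of 10 cardiac factors 9 were tested, 8 were called lower in WT lung and none was called higher. In KO mice 8 of the 9 were called lower too, against 20.9% of all genes. Their WT median was -5.61, with Irx4 at 0 to 1.16 in the 6 lungs and 9.36 to 10.17 in the 6 hearts.

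The comparison of KO with WT lungs asked whether loss of Adam19 was accompanied by a change in these factors. No gene of the 9 was called, nor was any at an adjusted p under 0.05, where 11 of 16551 genes tested (0.0665%) were called. The median difference over the 9 was 0.05, beside 0.01 for all genes. Foxj1 was higher in KO, with 3 of 3 KO lungs above 3 of 3 WT lungs, the difference being 0.34 (standard error 0.15, 95% interval -0.0024 to 0.68, limma adjusted p = 0.829, exact permutation p = 0.1, the smallest that 3 against 3 allow). It was the 1 gene of the 9 whose KO and WT lungs did not overlap, and 12.8% of all genes tested had no overlap. Foxf1 was the lowest in KO, at -0.25 (0.18, interval -0.67 to 0.17, limma adjusted p = 0.842), with groups that overlapped.

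The other 7 genes differed by between -0.08 and 0.31. The 95% intervals reached from -0.50 to 0.61 for Nkx2-1, from -0.35 to 0.39 for Foxa1, from -0.51 to 1.14 for Foxa2, from -0.58 to 0.43 for Sox2, from -0.29 to 0.55 for Sox17, from -0.48 to 0.35 for Tbx2 and from -0.43 to 0.73 for Tbx4. On the deposited values, a change of 2-fold either way thus lay outside the interval for 8 of the 9 genes. For Foxa2 a 2-fold rise lay inside the interval and a 2-fold fall outside it. Under CPM, the difference of all genes moved to a median of 0.29 and the differences of Foxf1, Sox2 and Tbx2 turned positive, at 0.03, 0.21 and 0.21, which is below that median. Leaving out WT replicate 3 turned Nkx2-1 to -0.21, Foxa1 to -0.02, Foxa2 to -0.16 and Tbx4 to -0.15.

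**Figure D3:**
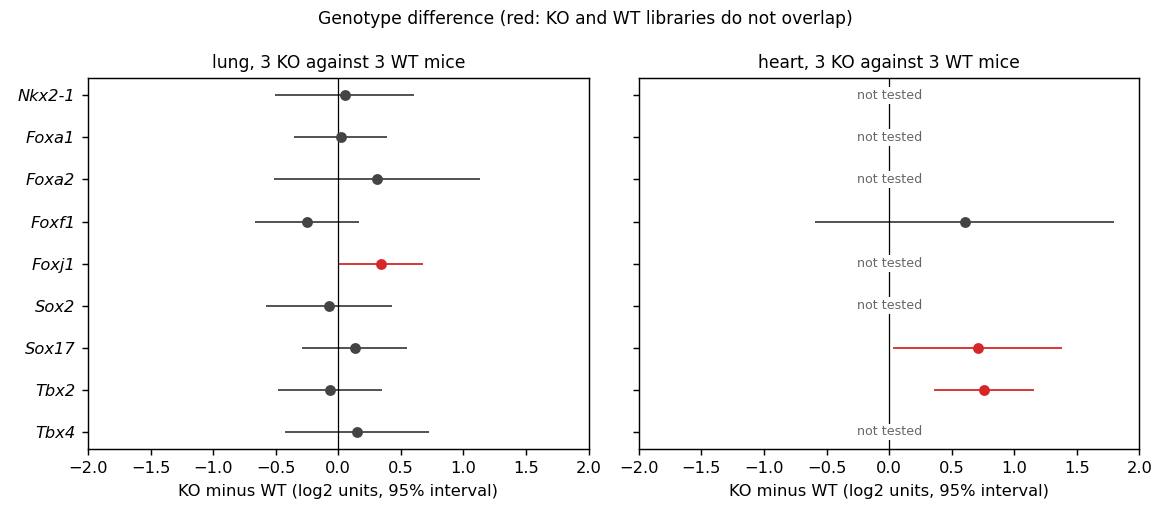
KO minus WT difference (horizontal axis, log2 units, point and 95% limma interval, 3 KO against 3 WT mice) for the 9 genes in lung (left) and heart (right), with 6 genes not tested in heart. Red marks genes whose KO and WT libraries did not overlap: Foxj1 in lung at 0.34, and Sox17 and Tbx2 in heart at 0.71 and 0.76.

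WT lung replicate 3 deserves a separate account, since it held the lowest value of its group in 7 of the 9 genes, as it did in 34.4% of the 16551 genes tested in lung. Its deviation from the group mean was -0.95 for Foxa2, -0.61 for Tbx4, -0.53 for Nkx2-1 and -0.29 for Tbx2, but -0.08 for Foxa1 and -0.06 for Foxj1. KO lung replicate 3 was likewise the lowest of its group in 8 of 9 genes, by at most 0.27, and in 43.0% of all genes tested. Rn7s1 took 2.1% of the counts of WT replicate 3, against 3.2% to 34.0% in the other lungs. Its 10 heart muscle genes summed to 135% of the WT lung mean, against 56.5% to 87.9% in the other lungs. Of 5 thymus and oesophagus genes 4 were above 0 there, as in KO replicate 2. They summed to 95.3 scaled counts in WT replicate 3 against 10.1 to 20.3 in the other lungs. Dntt measured 5.09 in WT replicate 3 and 2.77 to 3.72 in the others. Rag1, named after its values were seen, measured 5.69 there and 0 in the others, whereas Krt4 measured 2.05 there and 3.11 in WT replicate 1. The 9 alveolar type 2 genes of WT replicate 3 summed to 108% of the WT mean, the highest of the 6 lungs. Of the 24 marker, factor and family lists, 15 had their lowest WT sum in this lung, against 6 in WT replicate 1 and 3 in WT replicate 2. The Fox, Sox, Tbx and Nkx family lists are among the 15 and hold the 9 genes themselves. Lists without the 9 genes that were lowest there include other mesenchymal factors at 73.1% of the WT mean, arterial genes at 79.5% and alveolar type 1 genes at 85.5%. Within WT, replicates 1 and 2 share the prefix of their mouse identifiers, and replicate 3 has another. Within KO, replicates 2 and 3 share a prefix, and replicate 1 has another. What the prefix marks is not given, and the part of these features in the low values was not tested.

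Markers of airway cells are given here beside Foxj1. Of 18 ciliated cell genes, 16 were higher in KO lungs by the mean, with a median difference of 0.57, and none was called. Dnah5, a dynein heavy chain of cilia, measured 10.28, 10.63 and 11.17 in WT lungs and 11.05, 11.80 and 11.34 in KO lungs. The summed level of the list lay between 96.1% and 106.9% of the WT mean in WT lungs and between 105.7% and 137.8% in KO lungs, ranges that overlapped, and none of the 18 genes was at 0. Tppp3 weighed most in that sum and went the other way. It measured 12.58, 12.32 and 12.37 in WT lungs and 12.27, 12.26 and 11.89 in KO lungs. The mean log2 value of the list, where each gene weighs alike, was 8.11 to 8.24 in WT and 8.45 to 8.97 in KO lungs, without overlap. Of 7 club and goblet cell genes 7 were higher in KO by the mean, with a median of 1.18 and none called. Their sum lay between 79.6% and 131% in WT and between 134% and 162% in KO. Most of that sum in each lung was Scgb1a1, at 17.28 to 18.12 in WT and 18.11 to 18.41 in KO. The mean log2 value of the 7 genes was 10.70 to 11.43 in WT and 11.54 to 13.03 in KO lungs. The part of these airway genes in the Foxj1 difference was not tested.

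Across the 6 lungs, 5 relations between a factor and the mean log2 value of the marker list of its compartment were computed. Foxj1 and the 18 ciliated cell genes gave Pearson's r = 0.942 (exact permutation p = 0.0111, adjusted over 5 relations 0.0556) and Spearman's rho = 0.886 (exact permutation p = 0.0333). Without the 2 lungs farthest from the median Foxj1 value, r was 0.976. Since KO and WT lungs lay apart in Foxj1, the deviations from the genotype means were related as well, with r = 0.834 (permutation p = 0.0222, adjusted 0.111). This p is approximate, because the pairings were permuted over all 6 lungs and not within genotypes. The r fell to 0.397 without the 2 farthest lungs, so within genotypes the relation rests on those lungs. Each genotype alone has 3 lungs, too few for a value of its own. On CPM values, where both sides are divided by the same library total, r was 0.983 (exact permutation p = 0.00278, adjusted 0.0139). Rn7s1 took from 2.1% to 34.0% of that total in lungs, and the part of this shared scaling in the CPM value of r was not tested.

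None of the 5 relations passed at an adjusted p under 0.05 on the deposited values. Nkx2-1 and the alveolar type 2 genes gave r = -0.20 (rho -0.0857, exact permutation p = 0.756 and 0.919). Sox2 and the club and goblet cell genes gave r = -0.0981 (rho -0.0857, exact permutation p = 0.942 and 0.919). Sox17 and the arterial genes gave r = 0.27 (rho 0.0286, exact permutation p = 0.714 and 1). Foxf1 and the endothelial genes gave r = 0.46 (rho 0.600, exact permutation p = 0.383 and 0.242). The adjusted value was 0.942 for each of these 4 Pearson relations, and without the 2 farthest lungs r was 0.408, 0.497, 0.64 and 0.645 in the same order.

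**Figure D4:**
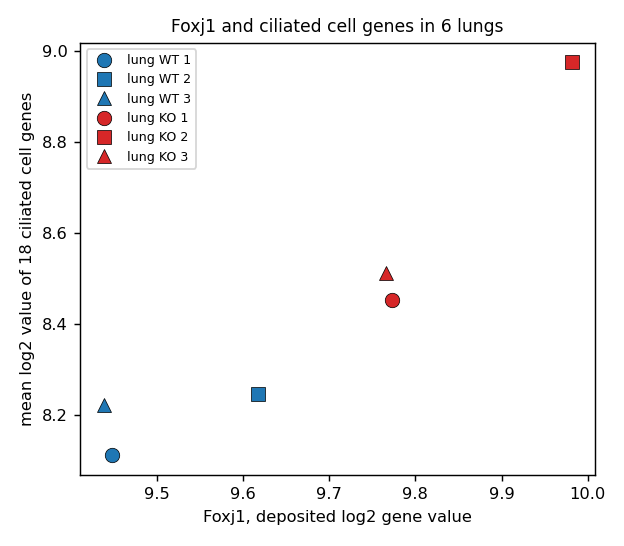
Mean log2 value of 18 ciliated cell genes (vertical axis) against the Foxj1 log2 value (horizontal axis) in 6 lungs, blue for WT and red for KO, with a symbol for each replicate. KO replicate 2 is the highest on both axes, at 9.98 and 8.97, and the 3 KO lungs lie above the 3 WT lungs on both.

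In hearts, 3 of the 9 genes reached the filter, Foxf1, Sox17 and Tbx2, and the other 6 could not be tested for a KO difference. None of the 3 was called, where 13 of 15303 genes tested (0.085%) were called. For Foxf1 this was fixed in advance, as its heart means of 3.33 in WT and 3.93 in KO lay under the 6 that a call needed. It passed the filter through WT replicate 3 (3.94) and KO replicates 1 and 2 (4.50 and 4.04). Tbx2 was 0.76 higher in KO hearts (standard error 0.18, 95% interval 0.36 to 1.16, limma adjusted p = 0.378, exact permutation p = 0.1), which is 1.69-fold, and its lowest KO heart lay 0.50 above its highest WT heart. The difference lay between 0.58 and 0.85 over the 15 alternatives and was not called under any of them, with adjusted p from 0.119 to 0.994. Sox17 was 0.71 higher (0.30, interval 0.03 to 1.38, limma adjusted p = 0.650, exact permutation p = 0.1), and its groups all but touched, with the lowest KO heart at 7.5835 and the highest WT heart at 7.5833. Without WT replicate 2 the Sox17 difference was 0.36, and over the libraries left out in turn it reached 0.96. Foxf1 was 0.60 higher (0.53, interval -0.59 to 1.80, limma adjusted p = 0.796) with overlapping groups, and lay between 0.32 (without KO replicate 1) and 0.94 (without KO replicate 3). The groups of Tbx2 and Sox17 did not overlap, as for 13.0% of all genes tested.

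Smooth muscle genes are given here beside Tbx2 in hearts. Of 7 such genes 7 were higher in KO by the mean, with a median of 0.81 beside 0.03 for all genes tested, and none called. Other lists leaned the same way, among them pericytes with 5 of 5 genes, adipocytes with 5 of 5 and other epithelial factors with 19 of 21 tested. Heart muscle genes did so in 4 of 10, mesothelium genes in 1 of 4 and red blood cell genes in 0 of 5. Acta2, smooth muscle actin, measured 12.31, 12.58 and 12.98 in WT hearts and 13.26, 13.30 and 13.17 in KO hearts. The summed level of the 7 smooth muscle genes overlapped, from 45490 to 61350 scaled counts in WT and from 59190 to 66890 in KO, with none at 0. Most of that sum was Des, the highest of the 7 in each heart and higher in heart than in lung. Des measured 15.23, 15.07 and 15.60 in WT hearts and 15.31, 15.62 and 15.28 in KO hearts, so the sum says little of the other genes. The part of the smooth muscle genes in the Tbx2 difference was not tested. The contrast of the KO difference between lung and heart was -0.83 for Tbx2 (standard error 0.23, limma adjusted p = 0.502). It was called for none of the 9 genes, with 1 of 17666 genes called (0.00566%). For the 6 genes not tested in hearts, its heart part rests on few counts, with standard errors of 0.69 to 0.99. The absence of a call decides nothing for those genes.

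The transcript table listed 23 transcripts of the 9 genes. Of these, 2 were at 0 in every library, 17 were tested between KO and WT lungs and none was called, where 37 of 36857 transcripts tested (0.1%) were called. Foxf1, Foxj1, Sox2 and Tbx2 had 1 transcript each, and Foxa1 had 1 above 0. Nkx2-1 was carried by a transcript of 2 exons that starts inside the gene at position 56582054, with 89.4%, 88.7% and 81.7% of the estimated counts in WT lungs and 86.5%, 87.5% and 92.3% in KO lungs. The remainder came from a transcript of 3 exons with a start at position 56583722, the base next to the Nkx2-1 run printed above. Foxa2 had 86.0% ± 2.08 (SD, n = 3) of its WT counts on ENSMUST00000109964, a transcript of 2 exons, and 13.2% ± 2.59 on one of 3 exons with the same start.

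Tbx4 used 3 starts. The outermost transcript, of 9 exons, held 66.6% ± 10.97 of the counts in WT and 58.9% ± 12.2 in KO lungs. The middle one, of 8 exons, held 45.1%, 15.0% and 29.6% in WT and 16.0%, 6.38% and 27.1% in KO lungs. The innermost, of 7 exons, which starts at position 85787591 just after the printed Tbx4 run, held 0%, 8.33% and 2.30% in WT and 36.8%, 35.6% and 1.42% in KO lungs. It was high in KO replicates 1 and 2 and low in the other 4 lungs, so the groups overlapped, and its difference of 3.41 had a standard error of 1.96 (limma adjusted p = 0.822). Salmon divides reads among transcripts that share exons, so such shares carry an assignment error that the files do not give.

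Sox17 was spread over 8 transcripts. The main one, of 5 exons and 3130 bases, held 79.4% ± 8.89 in WT lungs and 65.7% ± 12.8 in WT hearts. A shorter transcript of 2 exons and 840 bases, chosen after its values were seen, held 9.95%, 3.42% and 10.4% in WT lungs, 10.9%, 9.20% and 0% in KO lungs, 22.6%, 14.6% and 21.5% in WT hearts and 23.9%, 19.3% and 18.4% in KO hearts. In 6 of 6 mice its share was higher in heart than in lung, a difference that was not tested.

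**Figure D5:**
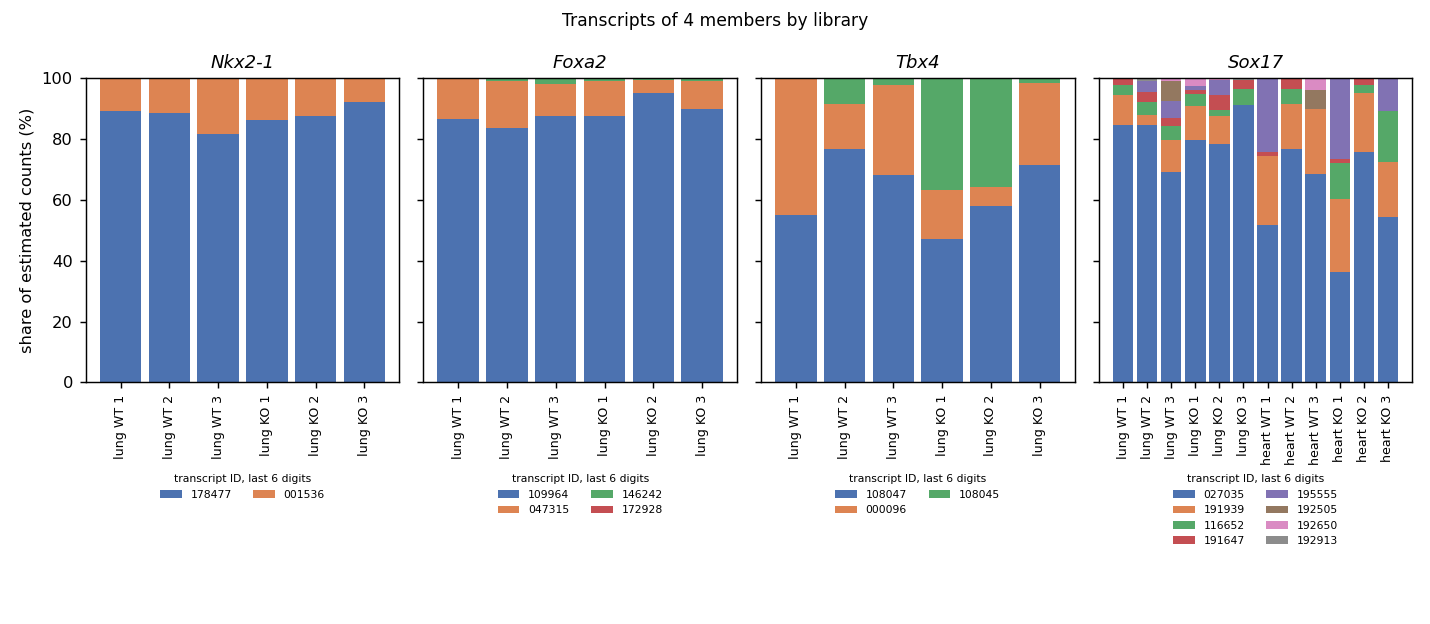
Share of a gene's estimated counts (vertical axis, %) held by each of its transcripts (colours, by the last 6 digits of the identifier) in single libraries (horizontal axis), for Nkx2-1, Foxa2 and Tbx4 in 6 lungs and Sox17 in 12 libraries. The innermost Tbx4 transcript (green) reaches 36.8% and 35.6% in KO lungs 1 and 2 and at most 8.33% in the other 4, and the Sox17 transcript of 840 bases (orange) is larger in hearts.

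Several of the genes have noncoding neighbours within 5 kb of their start or overlapping them. Fendrr, a noncoding RNA read from the opposite strand, starts 1225 bases from Foxf1. It measured 8.51, 8.90 and 9.31 in WT lungs and 8.79, 9.19 and 9.03 in KO lungs, and was listed at 0 in 4 of 6 hearts. Fendrr thus had the same lung and heart pattern as Foxf1, but its order among the WT lungs was the reverse of that of Foxf1. 2610027K06Rik, which starts 26 bases from Tbx2 on the opposite strand, measured 5.44 to 5.61 in WT lungs and 4.86 to 5.21 in KO lungs, and 0 to 3.78 in hearts. Gm26973 overlaps Nkx2-1 on the opposite strand and measured 5.28 to 6.12 in lungs, and Gm37587 overlaps Sox17 likewise at 0 to 4.98. Sox2 lies within Sox2ot, which measured 2.65 to 3.54 in lungs. Whether strand was used in assigning reads is not given in the sources used here, so reads of overlapping genes on opposite strands may not be fully parted.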

How the data were processed

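RNA was measured in lung and heart of 6 mice, 12 libraries, and the labels gave the tissue, genotype and mouse of each. The authors quantified reads with Salmon against GENCODE mouse transcripts of mm39; the submitters' processing notes also name cutadapt, STAR and limma 3.42.2. They deposited gene and transcript values on a log2 scale. In genes of 1 transcript with a value of at least 9, the gene value was the transcript value plus a library constant of -0.63 to 0.80, within 0.01 in at least 94.7% of such genes; in genes of several transcripts it can differ from the sum of the transcripts, so shares and per kb levels were taken from the transcript table. How the authors made the constants is not given in the sources used here. The tables hold no further sample columns.

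Genes with a log2 value of at least 3.46 (10 estimated counts, before the constant) in 3 libraries were fitted with limma 3.58.1 in R 4.3.3 (lmFit, eBayes with trend), for 6 libraries within a tissue or, for tissue contrasts and the interaction, 12 libraries as 4 group means. P-values were adjusted by Benjamini-Hochberg over all genes tested. Calls needed adjusted p under 0.05, a fold of 1.5 and a group mean of 6; the interaction needed the adjusted p alone. The fit was tested on simulated data. Lung to heart count ratios carry exact 95% intervals that cover counting error only. The p-values measure the spread between single mice. Replicate numbers pair lung and heart because they are the same animals; the deviations of lung and heart from their group means correlated over genes at -0.07 to 0.14. Gene models, lengths and neighbours came from GENCODE vM39 on GRCm39, which matched 99.0% of gene identifiers. The members, gene lists and tests were chosen with earlier results of these data known. The text names the 9 genes, for each list up to 3 genes highest in WT lung and up to 3 with the largest called difference, the 3 largest called family differences each way, annotated neighbours and the 3 genes most like each member. Where a gene outside this rule is named, its choice after its values were seen is stated. Foxd3 and Rag1 were added in this way. Alternatives were the summed transcripts, CPM, quantile normalization, a pseudocount of 5, no filter and a strict filter, limma-voom, no trend, each library left out and a replicate block for the mouse.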

Additional observations from a re-analysis of the deposited data

How the results depend on the processing

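Under the strict filter (at least 3.46 in every library) the lung KO comparison had 1 call, the heart KO comparison 7 and the lung transcripts 0, and 2 of the 9 genes remained to be called between lung and heart in WT and 2 in KO, Sox17 and Tbx2, because the other genes were not tested. The interaction had 0 calls under CPM and 0 under quantile normalization, 2 under a pseudocount of 5, 2 under limma-voom, 4 without the trend and 2 with the replicate block for the mouse, beside 1 in the report, and the block changed no call of the 9 genes. The lung KO differences of Foxf1, Sox2 and Tbx2 changed sign under CPM (0.0301, 0.205 and 0.214) and limma-voom (0.0318, 0.216 and 0.215), where the median of all genes moved from 0.01 to 0.29 and 0.30. The interaction estimates changed sign for Nkx2-1 under CPM (0.455), a pseudocount of 5 (0.507) and limma-voom (0.280), and under a pseudocount of 5 for Foxa1 (0.207), Foxa2 (0.507) and Foxj1 (0.128). The relation of Foxj1 with ciliated genes passed under CPM (r = 0.983), where both sides are divided by the same library total. That of Sox2 with club and goblet genes was positive under CPM (0.511) and on deviations (0.0552). That of Sox17 with arterial genes went from 0.27 to 0.693 under CPM and 0.135 on deviations and did not pass. Quantile normalization moved the median of the lung and heart differences to 0.098 in WT and 0.10 in KO. The cause of these changes was not tested.

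Leaving out 1 library in turn, calls numbered 10 to 14 in lung, 10 (without KO replicate 3) to 21 (without KO replicate 2) in heart, 0 (without lung WT replicate 1) to 6 (without heart WT replicate 3) for the interaction and 1 (without KO replicate 2) to 161 (without WT replicate 2) for lung transcripts. Of the 9 genes, 9 stayed called between lung and heart and 0 were called between genotypes. The lung KO difference changed sign within the ranges of Nkx2-1 (-0.214 to 0.261), Foxa1 (-0.0268 to 0.0840), Foxa2 (-0.163 to 0.560), Sox2 (-0.187 to 0.0998), Tbx2 (-0.215 to 0.0873) and Tbx4 (-0.154 to 0.301), and the interaction within those of Nkx2-1 (-0.840 to 0.0544) and Tbx4 (-0.697 to 0.722). The heart KO difference lay between 0.360 and 0.957 for Sox17, 0.321 and 0.940 for Foxf1 and 0.698 and 0.851 for Tbx2. In hearts 6 of the 9 genes had too few reads to test for a KO difference.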

Other observations

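For each of the 9 genes, the 3 genes whose log2 values correlated best with it over the 12 libraries were found among the 17666 genes tested. The points share their tissue, so a high r here mostly states a like step between lung and heart. Closest to Nkx2-1 were Ptpn7 (r = 0.998), Cldn8 and Lyn, to Foxa1 Rasgrp1 (0.997), Unc13d and Esrp1, and to Foxa2 Ptk7 (0.997), Gcnt2 and Aqp5. Closest to Foxj1 were Cckar (0.999), Wfdc2 and Cfap91, and to Sox2 Clic6 (0.994), Sec14l4 and Sort1. Foxf1 was followed most closely by Sfta2 (0.998), Napsa and Slco4c1, Tbx2 by Matn4 (0.998), Cdkn2b and Ism1, and Tbx4 by S100a14 (0.998), Scnn1g and Itgam. Sox17 had the lowest best match, Ltb4r1 (0.978), with Slc35e4 and Bcas1 next.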
